A study of Rattus norvegicus with 151 samples.

Results

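Liver and kidney were compared at baseline in the rats that received vehicle alone. The comparison used 27 arrays of the 151 in the series, 14 of liver and 13 of kidney, chosen by their labels as the 0 mg/kg arrays of each tissue. All came from male Harlan Sprague-Dawley rats 6 to 8 weeks of age that were gavaged with corn oil on 5 consecutive days, and none of these rats received a test chemical. The rats had been the controls of 3 chemical sets, MCHM (4-methylcyclohexanemethanol), crude MCHM (the unpurified form) and PPH (propylene glycol phenyl ether). The MCHM set gave 5 liver and 5 kidney arrays, the crude MCHM set 4 and 3, and the PPH set 5 and 5. RNA from tissue samples kept in RNAlater was measured on Affymetrix expression arrays, 1 array per sample. The labels number the samples and do not say in words that each is a separate animal, so p-values measure the spread between these samples. Each value is a log2 level, so a difference of 1 stands for 2-fold, and differences are given as liver minus kidney, above 0 where liver was higher.

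Liver and kidney share several tasks. Hepatocytes make most proteins of the blood plasma, turn ammonia into urea, cholesterol into bile acids and foreign compounds into excretable ones. The kidney filters plasma and then takes back salt, water, sugar and amino acids along a row of specialised tubule segments, and it makes glucose and clears ammonia as well. In bulk tissue, a lower number of cells of a type and less RNA in each such cell cannot be told apart.

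The arrays separated by tissue. The median Pearson correlation of an array with the others of its own tissue, across 31099 probe sets, lay between 0.987 and 0.992, and with arrays of the other tissue between 0.846 and 0.859. The first principal component held 93.3% of the variance and divided liver from kidney. The mean level of 12 hepatocyte markers was 12.59 to 12.91 in livers and 5.34 to 7.15 in kidneys, and that of 13 proximal tubule markers was 11.90 to 12.23 in kidneys and 5.71 to 6.05 in livers, so each tissue carried the markers of its label. The kidney array numbered 4 of the MCHM set stood apart, with the 7.15, where the other kidneys had at most 5.69. Of the 15 genes with the greatest excess in liver, 14 had their highest kidney value on that array. Differences of the 6 named genes that moved most are also given without it.

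Of 14218 genes named on the array, 11787 passed a filter on low values and were tested with limma, with the chemical set as a block. After Benjamini-Hochberg adjustment 9950 genes differed at an adjusted p under 0.05, which is 84.4% of those tested, with 4376 (37.1%) higher in liver and 5574 (47.3%) higher in kidney. With so many differences, size and the same direction in each set carry more information than the call. Taking a difference of at least 2-fold with 1 sign in all 3 sets left 3114 genes (26.4%). Of these, 1177 (9.99% of all tested) were higher in liver and 1937 (16.4%) higher in kidney. Counts for the gene lists below are to be read beside these shares of all tested genes. In 3006 of the 3114, no liver array overlapped any kidney array. Over all tested genes such a gap was found for 1999 higher in liver (17.0%) and for 3225 higher in kidney (27.4%).

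The largest differences were more often in favour of liver. At 5 log2 units or more, 182 genes were higher in liver and 127 in kidney. The median difference of all tested genes was -0.09. The balance between the tissues depended on the scale. Centred on the median level of 14 reference genes on each array, in place of the whole array, all differences moved by 0.97 towards liver. Then 9103 calls were higher in liver and 1554 in kidney, and the 2-fold genes became 5100 and 843. The median difference of the 14 genes themselves was -0.21 on the deposited scale and 0.76 after centring. The step thus did not make these genes equal, and it moved differences by more than their own median. Liver had the smaller share of calls (44.0%) on the deposited scale and the larger (85.4%) on the other one. Which scale is nearer to the true amounts was not tested. Differences between about -1 and 0 have no direction that holds on both scales, while those above 0 keep theirs. A like level, too, holds for the deposited scale. The levels also set a limit at the low end. A level under 4.68, the cutoff of the filter, was taken as low. All kidney arrays were under it for 184 of the 1177 genes and all liver arrays for 312 of the 1937. Differences against such levels are given as measured and may fall short of the true ratio. The level at which these arrays stop resolving amounts was not measured.

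**Figure D1:**
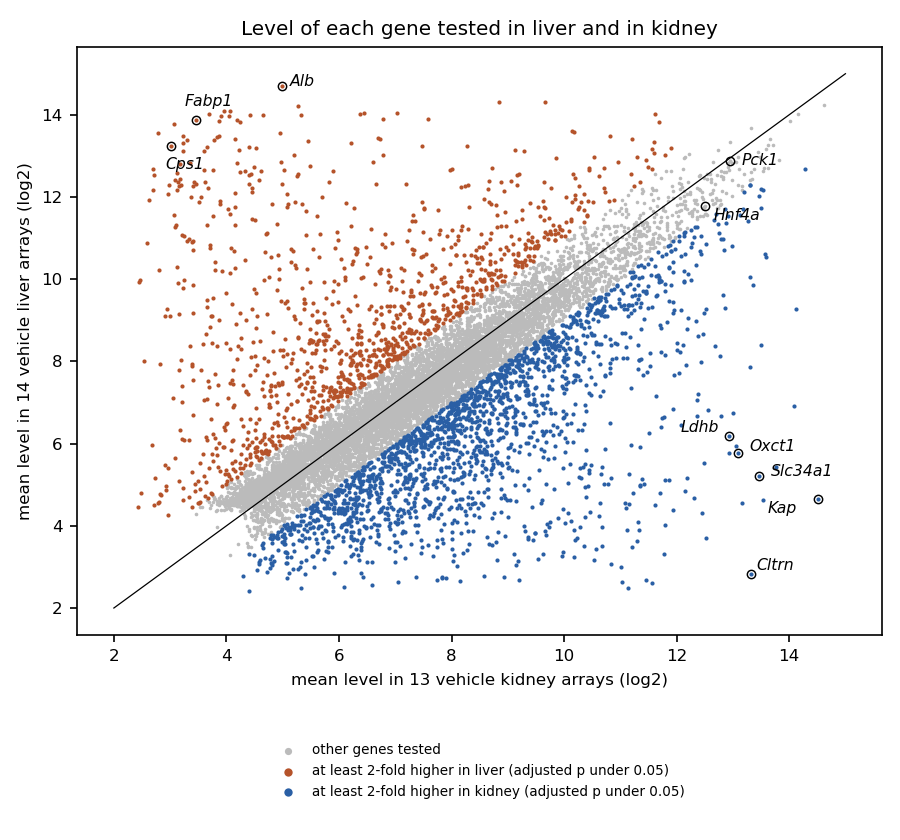
Mean log2 level of each of the 11787 tested genes in the 13 kidney arrays (horizontal axis) and the 14 liver arrays (vertical axis), with the line of equal levels. Orange and blue mark the 3117 genes called and at least 2-fold apart in either direction, before the rule on 1 sign, and circles mark 10 genes described in the text, with Alb, Fabp1 and Cps1 at the upper left, Cltrn and Kap at the lower right, and Pck1 close to the line.

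The 15 genes with the largest excess in liver were Cyp2c6v1, Cyp3a2, Fabp1, Fgg, Cyp2c13, Cps1, Serpina1, Apoa1, Apoc1, Itih4, Ugt2b, Ahsg, Itih3, Serpina3l and Sult1e1, with differences from 9.89 to 10.79. The order depends in part on the kidney array numbered 4 of the MCHM set. Without it Cyp3a2 (10.97) passed Cyp2c6v1 (10.94), Alb (10.14) passed Ugt2b (10.04), and Fgg, Apoc1, Ahsg and Ttr, at 10.34, 10.09, 10.04 and 8.96 with all arrays, became 10.57, 10.31, 10.31 and 9.22. The 15 are enzymes of drug and steroid metabolism, proteins secreted into plasma, a fatty acid carrier and the first enzyme of the urea cycle. Among the Cyp2c, Cyp3a, Ugt2b and Serpina3 families, near-identical copies may share probe sets, so which member gave the signal is uncertain. Fabp1, which carries fatty acids inside hepatocytes, had 13.74, 13.88 and 13.99 as its lowest, median and highest liver level, and 2.92, 3.29 and 6.01 in kidney. The groups did not overlap, and the difference was 10.42 ± 0.19 (SE, adjusted p = 1.2e-27 in limma), or 10.62 without the kidney array numbered 4 of the MCHM set.

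Alb, which encodes albumin, the main protein of plasma, had 14.67, 14.69 and 14.73 in liver (lowest, median, highest) and 3.75, 4.43 and 10.19 in kidney, with no overlap. The kidney value of 10.19 came from the same array of the MCHM set, and the next highest kidney had 5.93. The difference was 9.73 ± 0.40 (SE, adjusted p = 5.28e-19) and 10.14 without that array. The liver levels of Alb were close together (SD 0.02, n = 14), while the kidney levels were not (SD 1.66, n = 13).

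The 15 genes with the largest excess in kidney were Cltrn, Kap, Slc12a1, Slc7a13, Calb1, Lrrc19, Gba3, Umod, Cldn10, Tinag, Slc3a1, Slc34a1, Fxyd2, Slc7a9 and Slc47a1, with differences from -10.49 to -7.79. They include the solute carriers Slc12a1, Slc7a13, Slc3a1, Slc34a1, Slc7a9 and Slc47a1 of tubule cells. Cltrn, or collectrin, helps amino acid transporters reach the apical membrane. It had 13.18, 13.33 and 13.43 in kidney and 2.46, 2.77 and 3.37 in liver, with no overlap and a difference of -10.49 ± 0.08 (SE, adjusted p = 1.63e-36). Kap, the androgen-regulated protein of the proximal tubule, had 14.45, 14.52 and 14.59 in kidney and 3.71, 4.40 and 6.43 in liver, again with no overlap. All 4 livers of the crude MCHM set lay between 5.37 and 6.43 for Kap and the other livers at or below 4.60, so its difference was -8.66 in that set and -10.25 and -10.41 in the MCHM and PPH sets.

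Secreted proteins of the plasma were higher in liver without exception among those tested. All 14 tested plasma carrier proteins, 15 protease inhibitors, 15 proteins of coagulation and fibrinolysis and 16 complement proteins were called higher in liver and differed by at least 2-fold, where 37.1% and 9.99% of all tested genes did so. Their median differences were 8.59, 7.87, 7.65 and 6.83, beside -0.09 for all tested genes. Transthyretin (Ttr), the carrier of thyroid hormone and retinol-binding protein, differed by 8.96 and haemopexin (Hpx), which binds free haem, by 9.63. Among clotting proteins the fibrinogen chains Fgg and Fgb differed by 10.34 and 9.57, the factor F9 by 8.90 and plasminogen (Plg) by 8.82. The complement genes C4bpa, Mbl2 and C3 differed by 9.48, 9.32 and 7.59.

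Lipoproteins and bile acids followed the same direction. Of 16 tested genes for apolipoproteins and lipoprotein export, 16 were called higher in liver and 15 by at least 2-fold, with a median of 7.79. Apoa1, the main protein of high-density lipoprotein, differed by 10.11, Apob, the frame of very-low-density lipoprotein, by 8.60, and Pon1, an esterase carried on high-density lipoprotein, by 9.52. All 20 tested genes of bile acid synthesis and transport were called higher in liver and 16 by at least 2-fold, with a median of 5.31. They include Slc10a1, which takes bile acids up from blood (7.83), Abcb11, which exports them into bile (7.63), and Slc27a5 and Baat, which activate and conjugate them (7.93 and 7.26).

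Cyp7a1, the rate-limiting enzyme of bile acid synthesis, was high in every liver but varied widely. Its lowest, median and highest levels were 8.72, 10.56 and 11.85 in liver and 2.64, 3.04 and 3.82 in kidney. The difference was 7.19 ± 0.27 (SE, adjusted p = 4.11e-20), and its SD among livers was 1.00 (n = 14). The spread was present within each set, with livers from 8.77 to 11.14 in the MCHM set, 8.72 to 10.55 in the crude MCHM set and 9.53 to 11.85 in the PPH set.

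Cytochrome P450 genes were mostly higher in liver. Of 26 tested cytochrome P450 genes and their reductase, 23 were called higher in liver, 20 of them by at least 2-fold, and 3 higher in kidney. The largest differences after those already named were Cyp2c22 (9.64), Cyp2c7 (9.57), Cyp3a23-3a1 (9.32), Cyp3a18 (9.11) and Cyp2a2 (9.05), subject to the caution on near-identical copies. Cyp4a8, which hydroxylates fatty acids at their end carbon, was the exception in kind. It had 11.79, 12.20 and 12.53 in kidney and 4.35, 4.78 and 5.47 in liver, a difference of -7.30 ± 0.11 (SE, adjusted p = 8.62e-30), and its other probe set gave -6.22. Cyp2c23, an arachidonic acid epoxygenase, was high in both organs, at 12.68 ± 0.20 in liver (SD, n = 14) and 13.11 ± 0.22 in kidney (SD, n = 13), and its difference of -0.43 becomes 0.54 when arrays are centred on the reference genes.

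Conjugation enzymes were found on both sides. Of 29 tested conjugation enzymes, 19 were called higher in liver, 15 of them by at least 2-fold, and 9 higher in kidney, 6 of them by at least 2-fold. The shares over all tested genes were 37.1% and 9.99% for liver and 47.3% and 16.4% for kidney. The oestrogen sulphotransferase Sult1e1 (9.89), the glucuronosyltransferase Ugt2b15 (9.11), the glutathione transferase Gstm1 (4.68) and Nnmt, which methylates nicotinamide (4.46), were higher in liver. Sult1c2 (-4.43), Gstp1 (-3.39), Ugt2b7 (-3.19), Gstt3 (-2.24), Tpmt, which methylates thiopurines (-1.87), and Glyat, which joins acyl groups to glycine (-1.78), were higher in kidney. Sulphation, glucuronidation and glutathione transfer thus each had members on both sides.

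Nitrogen metabolism split along the urea cycle. The first enzymes, Cps1 and Otc, and the last, Arg1, were higher in liver by 10.22, 8.36 and 8.64. The enzymes between them were not. Ass1, which joins citrulline and aspartate, had 11.53, 11.68 and 11.87 in liver and 11.89, 12.17 and 12.48 in kidney, and every kidney lay above every liver. The difference was -0.49 ± 0.05 (SE, adjusted p = 7.72e-10), and it becomes 0.48 with centring on the reference genes. Asl, which releases arginine, had 9.87, 10.00 and 10.36 in liver and 9.67, 9.98 and 10.35 in kidney. The ranges overlapped almost wholly, and the 95% interval of the difference ran from -0.11 to 0.18. Centring on the reference genes gives 1.00 for Asl. These are the enzymes with which the kidney makes arginine from circulating citrulline.

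Of 14 tested genes of urea synthesis and nitrogen disposal, 10 were called higher in liver and 2, Ass1 and Glul, higher in kidney. Glul, which makes glutamine from ammonia, had 11.99, 12.27 and 12.50 in kidney and 10.90, 11.16 and 11.53 in liver, with no overlap, a 2.09-fold difference on the deposited scale. The difference of -1.07 becomes -0.10 with centring on the reference genes. The liver-type glutaminase Gls2, which runs the opposite reaction, differed by 4.47 towards liver. The ammonia-producing Glud1 differed by 0.75 towards liver.

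Among 31 tested genes of amino acid breakdown, 24 were called higher in liver, 16 of them by at least 2-fold, and 4 higher in kidney. Tdo2, the first enzyme of tryptophan breakdown, differed by 9.04, Mat1a, which makes S-adenosylmethionine, by 7.85, and Uroc1 and Hal of histidine breakdown by 7.81 and 5.77. Further along the tryptophan route the levels were close on the deposited scale, while centring on the reference genes gives 0.85 for Kmo and 0.97 for Haao. Kmo had a difference of -0.12 and Haao of 0.00, with 95% intervals from -0.28 to 0.04 and from -0.13 to 0.12, and Acmsd, which diverts their product away from NAD synthesis, was higher in kidney, with a difference of -4.28 ± 0.23 (SE, adjusted p = 1.54e-16). The tyrosine breakdown gene Hgd was at a like level too (0.14), and Oat, which handles ornithine, was higher in kidney (-1.53), as were the glycine cleavage members Amt (-0.73) and Gcsh (-0.53) on the deposited scale, where centring on the reference genes gives 0.24 and 0.44.

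**Figure D2:**
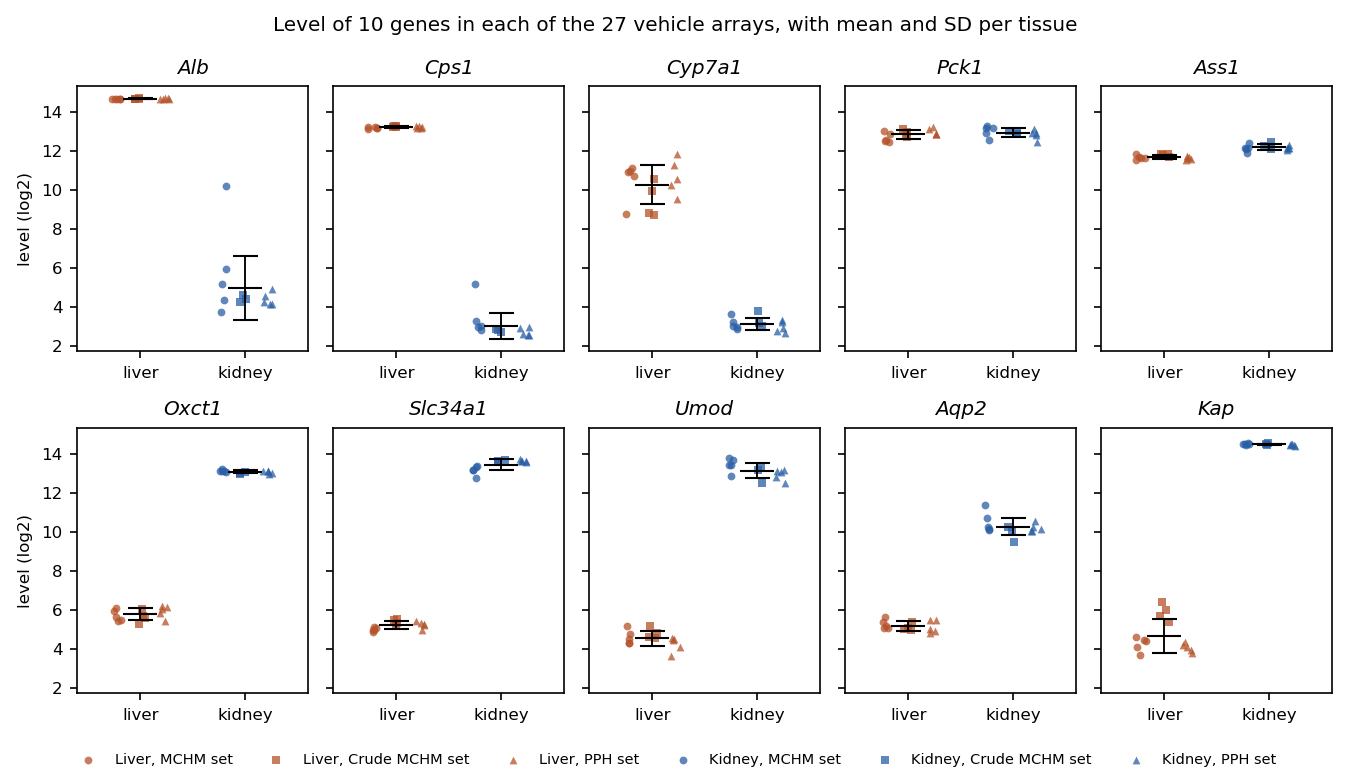
Log2 level of 10 genes in each of the 27 vehicle arrays, liver in orange and kidney in blue, with a symbol for each chemical set, and bars for the mean and SD of each tissue. Alb and Cps1 are high in liver, with 1 kidney array of the MCHM set above the other kidneys, Cyp7a1 varies among livers, Pck1 and Ass1 are high in both tissues, and Oxct1, Slc34a1, Umod, Aqp2 and Kap are high in kidney.

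Most genes of lipid synthesis were higher in liver. All 19 tested genes of cholesterol synthesis were called higher in liver, 18 by at least 2-fold, with a median of 2.23. The largest were Nsdhl (3.94), Cyp51 (3.45) and Fdps, at 12.53 ± 0.22 in liver (SD, n = 14) and 9.17 ± 0.09 in kidney (SD, n = 13), which is 10.3-fold. Of 21 tested genes of fatty acid and triglyceride synthesis, 17 were called higher in liver, 14 by at least 2-fold, led by Thrsp (5.57), a lipogenic nuclear protein, and the desaturase Scd (4.80). Acss2 (-1.76), which makes acetyl-CoA from acetate, and the elongase Elovl1 (-1.68) were higher in kidney, and Elovl6 (-0.01) and Me1 (-0.03) did not pass the test, with 95% intervals from -0.27 to 0.24 and from -0.22 to 0.15.

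The kidney levels of Thrsp and Scd were spread over 3.41 to 8.03 and 4.23 to 8.70 and did not form a tight group. The mean level of 8 fat cell markers in kidneys ran from 5.96 to 7.91, with the highest values on 1 array of the crude MCHM set (7.91) and 1 of the PPH set (7.41), and livers had 6.24 to 6.83. The list as a whole had no 1 direction, with a median of 0.05. Of the 8 markers, 4 were called higher in liver, 3 of them by at least 2-fold, beside 37.1% and 9.99% of all tested genes. In the other direction, 3 were called higher in kidney, 2 by at least 2-fold, beside 47.3% and 16.4%. Of the markers higher in kidney, Adipoq was under the filter cutoff in every liver and at 4.61 to 6.67 in kidney. Fabp4 was at 3.98 to 6.22 in liver and 6.02 to 9.15 in kidney. Without both arrays the differences were 6.05 for Thrsp, in place of 5.57, and 5.05 for Scd, in place of 4.80. The part of fat cells in these levels was not tested in any kidney.

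In fatty acid oxidation and ketogenesis most differences were small and towards liver. Of 22 tested genes, 19 were called higher in liver and 6 by at least 2-fold, where 37.1% and 9.99% of all tested genes were. The median was 0.62, or 1.59 after centring on the reference genes. The tissue by set interaction called 13 of the 22, beside 34.1% of all tested genes. On the deposited scale, 5 of the 22, beside 38.9% of all tested genes, were at a like level, with 95% intervals within 0.5 log2 units of 0, namely Acadm, Acadvl, Hadhb, Echs1 and Acat1. The acyl-CoA synthetase Acsl1 (3.09) and Cpt2 (1.76) had the larger differences on the liver side, and the coactivator Ppargc1a (-2.95) was higher in kidney. Bdh1 and Oxct1, of ketone body metabolism, lay at opposite ends. Bdh1, which forms beta-hydroxybutyrate in liver mitochondria, differed by 3.36, while Oxct1, the enzyme that lets cells burn ketone bodies and that hepatocytes lack, had 5.30, 5.77 and 6.20 in liver and 12.98, 13.12 and 13.22 in kidney. That difference was -7.31 ± 0.08 (SE, adjusted p = 7.76e-33), and no arrays overlapped.

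Genes of glucose production and glycogen lay on both sides. Pck1, the cytosolic enzyme that commits oxaloacetate to glucose, had 12.49, 12.88 and 13.26 in liver and 12.47, 12.95 and 13.28 in kidney. These ranges overlapped, and the 95% interval of the difference was -0.27 to 0.10 (adjusted p = 0.378). That holds on the deposited scale, and centring on the reference genes gives 0.89. Fbp1 and Slc37a4, later steps, were higher in kidney by 1.78-fold and 1.51-fold on the deposited scale, and the differences of -0.83 and -0.60 become 0.14 and 0.37 when centred on the reference genes. Of 21 tested genes of gluconeogenesis and glycogen, 11 were called higher in liver and 8 in kidney, beside 37.1% and 47.3% of all tested genes. By at least 2-fold, 10 were higher in liver and 3 in kidney, beside 9.99% and 16.4%. On the deposited scale 5 were at a like level, beside 38.9% of all tested genes. Liver members were the glycogen synthase Gys2 (6.12), the glycogen phosphorylase Pygl (2.46), the glucokinase regulator Gckr (4.90) and Pfkfb1 (5.32), which sets the level of a glycolytic activator. The lactate dehydrogenase chains went opposite ways, Ldha higher in liver by 2.25 and Ldhb higher in kidney, with a difference of -6.74 ± 0.04 (SE, adjusted p = 5.67e-38) and levels of 12.78, 12.92 and 13.06 in kidney and 6.00, 6.17 and 6.43 in liver.

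**Figure D3:**
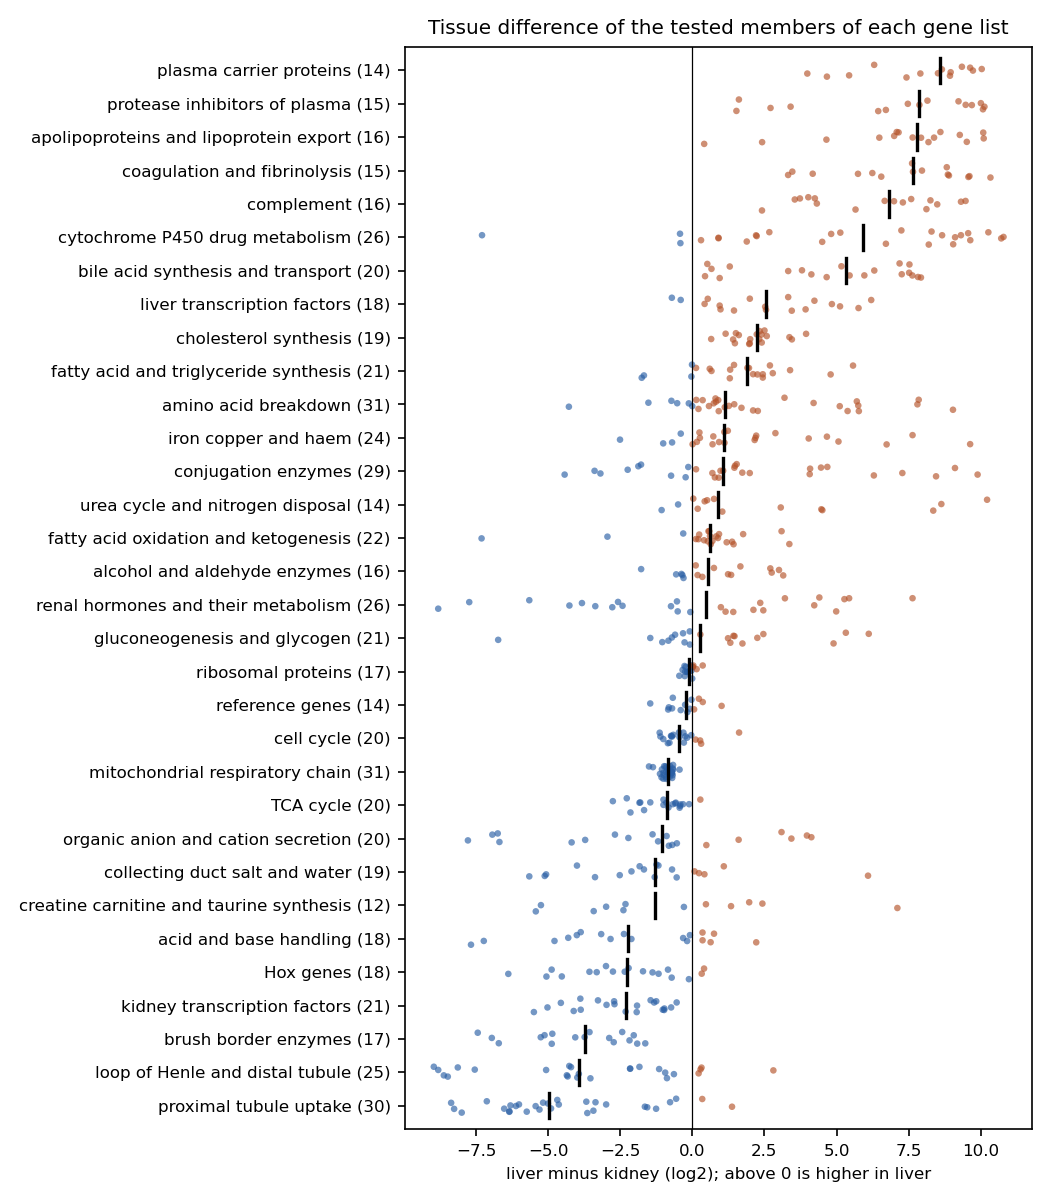
Difference of each tested member of 32 gene lists on the log2 scale, above 0 in orange and below 0 in blue, with a black mark at the median of the list and the number of tested members in brackets. Plasma proteins lie far to the liver side and proximal tubule uptake far to the kidney side, while the lists of glucose and hormone genes spread over both sides. Fatty acid oxidation lies mostly on the liver side, with 19 of 22 called higher in liver and 3 in kidney.

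Most genes of uptake from the tubule were higher in kidney. Of 30 tested transporters and receptors of proximal tubule uptake, 28 were called higher in kidney, 26 by at least 2-fold, where 47.3% and 16.4% of all tested genes were, with a median of -4.96. Slc34a1, the sodium-phosphate cotransporter, had 12.80, 13.61 and 13.75 in kidney and 4.89, 5.23 and 5.56 in liver, a difference of -8.26 ± 0.06 (SE, adjusted p = 6.88e-37). Slc3a1, which forms the cystine and dibasic amino acid transporter with Slc7a9, differed by -8.37. The receptors that take up filtered protein, Cubn with its partner Amn and Lrp2, differed by -7.13, -6.35 and -5.74, and the glucose transporter Slc5a2 by -4.90. The exceptions were Slc20a2 (1.38), a phosphate transporter found in many cells, and the sulphate transporter Slc26a1 (0.34), both higher in liver.

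The brush border enzymes and the secretory transporters belong to the same cells. All 17 tested brush border genes were called higher in kidney by at least 2-fold, with a median of -3.74, among them the metalloprotease chains Mep1a and Mep1b (-7.44 and -6.71), the glutathione-degrading Ggt1 (-6.96) and Miox, which breaks down inositol (-4.86). Of 20 tested transporters for organic anions and cations, 14 were called higher in kidney and 6 in liver, beside 47.3% and 37.1% of all tested genes. Slc47a1 (-7.79), Slco1a6 (-6.94), Slc22a2 (-6.75), Slc22a6 (-6.69) and Slc22a5, the carnitine transporter (-3.72), were on the kidney side. Abcc2, which pumps conjugates into bile and urine (4.13), Slc22a7 (3.97), the prostaglandin transporter Slco2a1 (3.44) and Abcc6 (3.09) were on the liver side.

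The loop of Henle and the distal tubule came next. Of 25 tested genes, 21 were called higher in kidney, 18 by at least 2-fold, with a median of -3.94. Umod, the most abundant urinary protein, had 12.53, 13.17 and 13.79 in kidney and 3.65, 4.54 and 5.18 in liver. Its difference was -8.62 ± 0.13 (SE, adjusted p = 5.36e-30), and Slc12a1, the cotransporter blocked by loop diuretics, differed by -8.97, the calcium-binding Calb1 by -8.81 and the potassium channel Kcnj1 by -5.07. Cldn14, a tight junction protein that limits calcium passage in this segment, was the exception by more than 2-fold, higher in liver by 2.81. Klhl3 (0.32), Trpv5 (0.28) and Ptger3 (0.22) were called higher in liver by less than 0.5, and Trpv5 lay at 4.21 to 4.96 in all arrays, close to the filter cutoff.

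Collecting duct genes were fewer and their levels more mixed. Of 19 tested genes of salt and water handling, 14 were called higher in kidney, 12 by at least 2-fold, and 4 higher in liver. Aqp2, the water channel that vasopressin moves to the membrane, had 9.52, 10.16 and 11.37 in kidney and 4.84, 5.08 and 5.64 in liver, a difference of -5.07 ± 0.12 (SE, adjusted p = 4.14e-25). The water channel Aqp3 differed by -5.66 and the sodium channel subunits Scnn1b and Scnn1g by -1.68 and -1.83. The probe sets of Scnn1a gave opposite signs (0.23 and -1.46), so it has no direction here. The vasopressin receptors parted, with Avpr1a, the receptor that acts through calcium, at 9.85, 10.17 and 10.54 in liver and 3.58, 4.12 and 4.56 in kidney (difference 6.09 ± 0.09 SE, adjusted p = 7.34e-30), and Avpr2, the antidiuretic one, higher in kidney (-1.31). Hsd11b2, which inactivates glucocorticoid in aldosterone target cells, differed by -5.12, and Hsd11b1, which regenerates it, was high in both tissues (13.15 ± 0.09 in liver, 12.73 ± 0.25 in kidney, SD), with a difference of 0.42.

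In acid and base handling 11 of 18 tested genes were called higher in kidney, 10 by at least 2-fold, and 5 higher in liver. Over all tested genes these shares were 47.3%, 16.4% and 37.1%. The proton pump subunits of intercalated cells, Atp6v1g3, Atp6v0a4 and Atp6v1b1, differed by -7.68, -7.23 and -4.78 and the carbonic anhydrases Car2 and Car4 by -4.31 and -4.01. Slc38a3, the glutamine transporter of periportal hepatocytes and of the proximal tubule, was the exception by more than 2-fold, higher in liver by 2.22.

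Of 26 tested genes of hormone systems, 13 were called higher in liver and 12 in kidney, beside 37.1% and 47.3% of all tested genes, and 12 and 9 by at least 2-fold, beside 9.99% and 16.4%. Angiotensinogen (Agt, 4.40), Igf1 (4.99) and hepcidin (Hamp, 7.64), the regulator of iron release, were liver signals. Kallikrein (Klk1, -7.74), the prostaglandin D synthase Ptgds (-5.66), the ageing-related co-receptor Kl (-4.26), the parathyroid hormone receptor Pth1r (-3.83) and the cyclooxygenase Ptgs2 (-3.37) were kidney signals. Cyp27b1, which activates vitamin D in the kidney, had 5.15 ± 0.18 in liver and 5.65 ± 0.28 in kidney (SD), a difference of -0.51 at low level that becomes 0.46 with centring on the reference genes.

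Some pathways had their first step in one organ and a later step in the other. Creatine starts with Gatm, which had 12.95, 13.34 and 13.51 in kidney and 7.61, 7.89 and 8.12 in liver (difference -5.43 ± 0.05 SE, adjusted p = 4.16e-34). It ends with Gamt, which had 11.87, 12.02 and 12.11 in liver and 9.58, 10.11 and 10.36 in kidney (1.97 ± 0.06 SE, adjusted p = 8.44e-22). Neither pair of ranges overlapped, and the signs were opposite. Carnitine was similar in layout, with Tmlhe, the first step, higher in kidney (-2.99) and Bbox1, the last, higher in liver (7.11). Of 12 tested genes of creatine, carnitine and taurine synthesis, 5 were called higher in liver and 7 in kidney. Over all tested genes 37.1% and 47.3% were, so the calls of this list, taken without size, lay near the background. By at least 2-fold, 4 were higher in liver and 6 in kidney, beside 9.99% and 16.4% of all tested genes.

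Genes that do related work in the same pathway were therefore compared as partners, each by its own tissue difference, since levels of different probe sets cannot be set against each other. Of 15 tested partners listed for liver, 15 were called higher in liver, beside 37.1% of all tested genes. Of 14 listed for kidney, 13 were called higher in kidney, beside 47.3%. Each partner had been listed under a tissue beforehand, so these counts describe the lists and do not test whether partners part. Fabp1 (10.42) and Fabp3 (-5.32) carry fatty acids, Arg1 (8.64) and Arg2 (-4.42) split arginine, Mat1a (7.85) and Mat2a (-3.71) make S-adenosylmethionine, and Aqp9 (7.05) and Aqp1 (-5.30) pass water. The transferrin receptors Tfr2 (6.74) and Tfrc (-0.70), the glycogen synthases Gys2 (6.12) and Gys1 (-1.20), the glycogen phosphorylases Pygl (2.46) and Pygb (-1.50), and the medium-chain acyl-CoA synthetases Acsm5 (0.91) and Acsm2 (-6.25) parted too. The exception was Slc10a2, the intestinal and renal bile acid transporter, which was higher in liver by 0.40, with mean levels of 5.80 in liver and 5.41 in kidney. The difference of Tfrc is among those under 1 log2 unit whose direction depends on the scale.

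**Figure D4:**
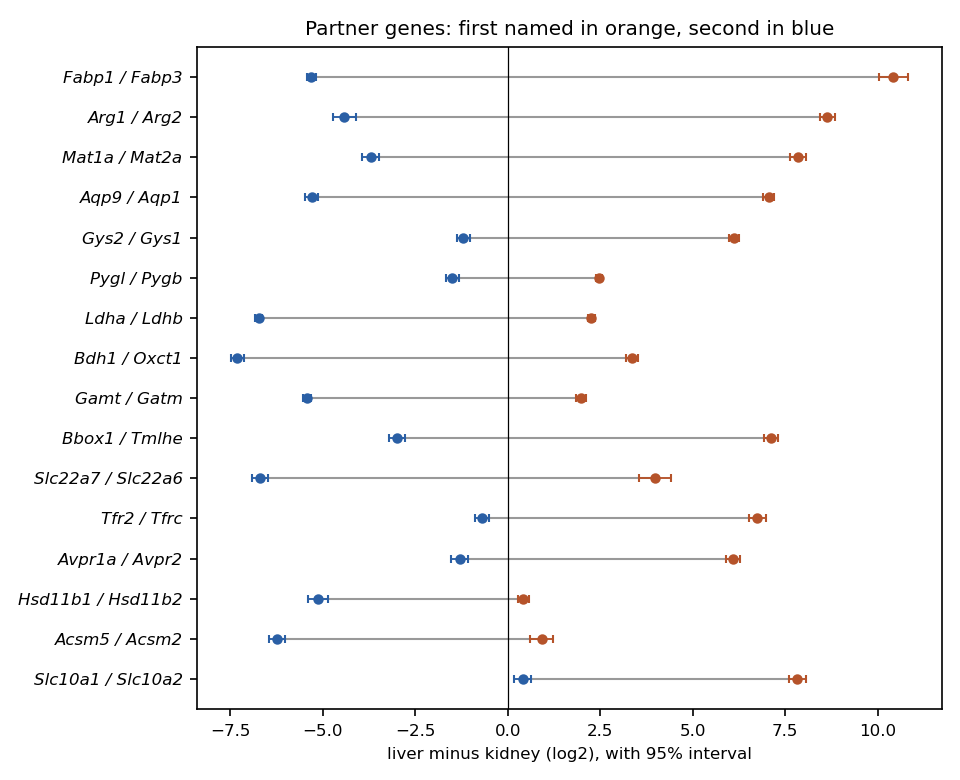
Liver minus kidney on the log2 scale, with its 95% interval, for 16 pairs of genes that act on related substrates, the first named gene in orange and the second in blue. In 15 pairs the points lie on opposite sides of 0, and in the pair Slc10a1 and Slc10a2 both lie above 0. The pairs were picked for display, some from outside the partner lists and with some listed pairs left out. The number of split pairs is therefore no test.

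Iron and haem genes were mostly on the liver side. Of 24 tested genes, 18 were called higher in liver, 13 by at least 2-fold, and 4 higher in kidney. Besides Hamp and Tfr2, Hjv (5.07), a co-receptor upstream of hepcidin, and Slc39a14 (4.04), an importer of free iron, were higher in liver. The iron importer Slc11a2 (-2.51) was higher in kidney.

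Mitochondrial genes moved together by small amounts. All 31 tested genes of the respiratory chain were called higher in kidney, 7 by at least 2-fold, with differences from -1.50 to -0.44 and a median of -0.85. Over all tested genes 47.3% were called higher in kidney and 16.4% by at least 2-fold, so the 2-fold count of the respiratory chain lay near that share. Of 20 tested genes of the tricarboxylic acid cycle and pyruvate oxidation, 19 were called higher in kidney, 9 by at least 2-fold, led by Idh3g (-2.76), Idh2 (-2.28) and Idh3a (-2.15). With centring on the reference genes the median of the respiratory chain became 0.12 and that of the cycle 0.10, so the direction of either list as a whole depends on the scale, while the 3 genes named kept theirs. Ribosomal proteins were near equal on the deposited scale, with 16 of 17 tested at a like level, beside 38.9% of all tested genes. Their median was -0.11, or 0.86 after centring. By set it was 0.09 (MCHM), -0.16 (crude MCHM) and -0.23 (PPH), so this list had no 1 sign. The tissue by set interaction called 14 of these 17 genes and 22 of the 31 of the respiratory chain, beside 34.1% of all tested genes. Reference genes were not all equal either, with a median of -0.21 on the deposited scale and 0.76 after centring. Ywhaz (-1.46) and Gapdh (-0.82) were higher in kidney and Gusb (1.01) and B2m (0.36) in liver on the deposited scale.

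Regulators divided as well. Of 18 tested liver transcription factors, 16 were called higher in liver, 12 by at least 2-fold, led by Onecut1 (6.20), Foxa2 (5.76), Nr5a2 (5.12) and the xenobiotic receptor Nr1i3 (4.84). Onecut1 ranged from 6.85 to 10.61 among livers, a wider spread than Foxa2 (8.39 to 9.73), and from 2.56 to 3.20 in kidney. Hnf4a, the nuclear receptor that drives hepatocyte genes, was the called exception. It had 12.26, 12.52 and 12.63 in kidney and 11.37, 11.81 and 12.09 in liver, with no overlap, a difference of -0.71 ± 0.06 (SE, adjusted p = 6.47e-12) that is 0.26 after centring on the reference genes. All 3 of its probe sets gave a negative difference on the deposited scale.

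All 21 tested kidney transcription factors were called higher in kidney, 17 by at least 2-fold, with a median of -2.31. Emx2 (-5.50), Tfcp2l1 (-5.03), Tfap2b (-4.56), Gata3 (-4.12) and Foxi1 (-3.87), the last a regulator of intercalated cells, had the larger differences, and Pax8 differed by -2.98. Hox genes, which record position along the body axis, followed. Of 18 tested, 15 were called higher in kidney, 13 by at least 2-fold. Hoxd8 had 10.41, 10.61 and 10.79 in kidney and 3.86, 4.30 and 4.48 in liver (difference -6.38 ± 0.06 SE, adjusted p = 2.1e-34), and Hoxa9, Hoxa10 and Hoxd10 differed by -5.06, -4.88 and -4.53. Hoxd11 (0.41) and Hoxc4 (0.32) were called higher in liver, with mean levels of 4.11 to 5.79 near the filter cutoff, where the mean over the probe sets of Hoxc4 gives -0.23. Hoxc5 did not pass the test (-0.12).

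Markers of other cell types were read as lists. All 9 tested markers of liver sinusoidal endothelium were at least 2-fold higher in liver, among them Fcgr2b (6.54) and Stab2 (4.64), and 10 of 11 tested Kupffer cell and macrophage markers were, led by Cd5l (7.52) and Clec4f (5.68), with Lyz2 higher in kidney (-1.22). Stellate cell and fibroblast markers were mixed, from 5.03 for Lrat to -3.03 for Dcn, with a median of 0.54. Of 13 tested, 7 were called higher in liver and 6 in kidney (6 and 2 by at least 2-fold). Over all tested genes 37.1% and 47.3% were (9.99% and 16.4% by at least 2-fold). Of 11 tested podocyte markers, 9 were called higher in kidney, such as Nphs1 (-3.04). The bile duct markers did not mark liver here, since 6 of 7 tested were called higher in kidney, among them Krt7 (-5.96), Epcam (-3.81) and Spp1 (-4.09), which tubule cells also express. The mean level of 4 adrenal markers was 4.33 to 4.87 in kidney and 5.28 to 5.91 in liver, of which Cyp17a1 was higher in liver (4.84) and Cyp11a1 in kidney (-0.70, or 0.27 after centring on the reference genes).

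The size of the tissue difference varied between the chemical sets for many genes, by amounts that were mostly small. A test of the tissue by set interaction called 4022 genes (34.1%), and in 3724 of them the 3 set differences lay within 1 log2 unit of each other. The MCHM set was the one farthest from the other sets in 2669 of the 4022. Called one set at a time, 9033 genes (76.6%) differed between liver and kidney in the MCHM set, 8955 (76.0%) in the crude MCHM set and 9262 (78.6%) in the PPH set. Of the 3117 genes called and at least 2-fold apart, 3 did not keep 1 sign in all 3 sets.

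The 5 genes with the smallest interaction p were Grina, Dcaf7, Sdcbp, Nudt3 and Sdha, and in all of them the MCHM set differed from the others. For Grina the set differences were -0.26 (MCHM), -1.96 (crude MCHM) and -2.10 (PPH), and for Nudt3 they were -0.49, -1.71 and -1.95. Dcaf7, Sdcbp and Sdha went the other way. For Dcaf7 the set differences were -1.58, -0.33 and 0.05, and for Sdcbp they were -2.39, -1.24 and -0.99. Sdha, a subunit of succinate dehydrogenase, had -1.39, -0.39 and -0.17, and its interaction had an adjusted p of 1.09e-08.

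A measure of RNA integrity moved with the same division. The level of the 3' beta-actin control probe set minus that of the 5' one was 1.76 to 2.10 in livers and 1.26 to 1.31 in kidneys of the MCHM set. It was 1.19 to 1.29 in livers and 2.17 to 2.82 in kidneys of the crude MCHM set, and 1.11 to 1.27 and 2.34 to 3.07 in the PPH set. In the MCHM set livers were thus the higher, and in the other sets kidneys were, with no overlap in any set. With this control difference as a covariate the interaction called 321 genes in place of 4022, while the tissue difference still called 9812 and left 3066 at least 2-fold. The control difference itself followed tissue by set, so its effect and the interaction cannot be told apart in this fit. The fall from 4022 to 321 therefore gives no cause. The part of RNA integrity in the differences between sets was not tested.

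**Figure D5:**
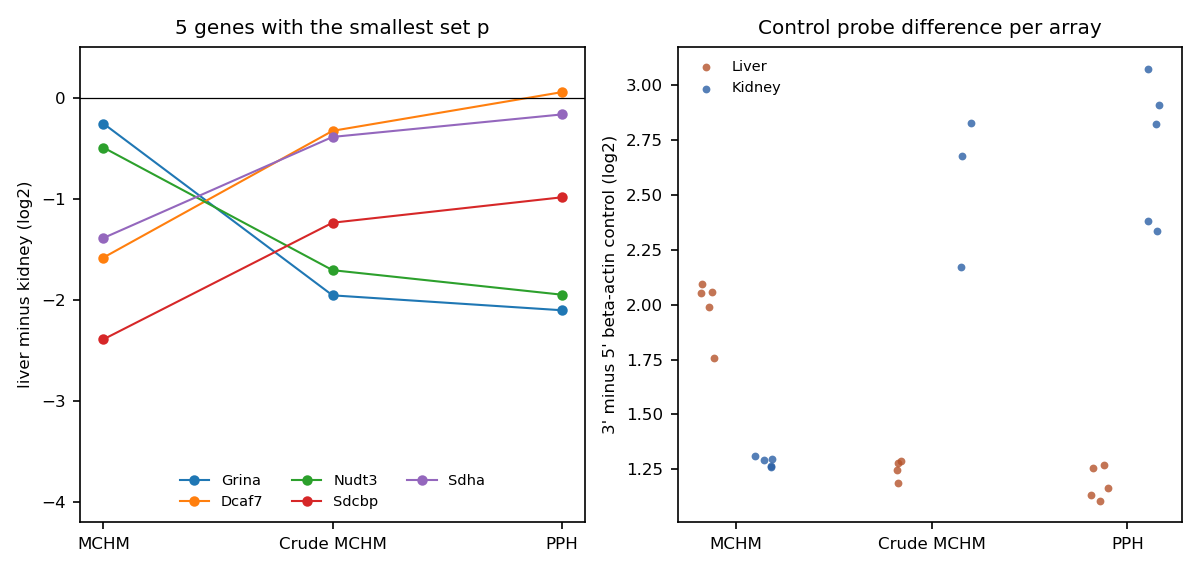
Left, liver minus kidney (log2) in each chemical set for the 5 genes with the smallest interaction p. Right, the 3' minus 5' beta-actin control difference (log2) of each of the 27 arrays by set, liver in orange and kidney in blue, higher in livers than in kidneys of the MCHM set and lower in livers of the other sets.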

How the data were processed

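The authors deposited log2 expression values per probe set, made with RMA per the submitters' processing notes, for 151 arrays. Whether both tissues were normalized together is not given in the sources used here. The 27 vehicle arrays were taken by their labels. Liver and kidney labels share 12 numbers, but they do not say that a number marks 1 animal. Of 31099 probe sets, 20832 had 1 gene symbol in the platform annotation, 436 had several and 9831 were unnamed here. Each gene was represented in both tissues by its probe set with the highest mean over these arrays. Genes above 4.68, the 40th percentile of all values, in at least 3 arrays were tested (11787 of 14218).

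Liver was compared with kidney in limma 3.58.1 (R 4.3.3) with the chemical set as a block, eBayes and Benjamini-Hochberg adjustment, with calls at an adjusted p under 0.05. A like level means a 95% interval within 0.5 log2 units of 0. Interactions were tested with a moderated F over 6 groups. On simulated data the tissue test recovered 96% of 100 genes changed by 0.5 and 99% of 100 changed by 1, and the interaction test 33% and 87%, with 11787 genes each. The simulated noise was independent between arrays, and far fewer genes changed than the 84.4% called in the data. These recovery rates therefore need not hold for the tests reported here. Precision is limited by the number of arrays.

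Named genes were the 15 largest differences each way, up to 8 called members per list, called members against the sign of their list's median, members not called or at a like level, partner genes, cell type markers and the 5 smallest interaction p-values. The comparison, its gene lists and the rule were chosen with earlier results of these data known. The 3' actin covariate and the fit without the 2 kidneys richest in fat cell markers were added after seeing the data.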

Additional observations from a re-analysis of the deposited data

Results flagged for a closer look

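Single arrays stood apart from the rest of their group, by Dixon's test, in 7 of 200 groups examined, beside about 1 in 20 by chance. The kidney array numbered 4 of the MCHM set had a mean of 7.15 in the hepatocyte markers, where the next kidney of that set had 5.69, and 6.01 for Fabp1, where the next had 3.67. The liver numbered 7 of the MCHM set had 8.77 for Cyp7a1 and the next 10.73. The kidney numbered 3 of that set had 11.92 for Cyp4a8 and the next 12.40. A single kidney of the PPH set was high in the mean of the liver sinusoidal endothelium markers (4.61, next 4.42) and of the lymphocyte markers (5.22, next 5.04). The liver numbered 3 of the MCHM set was low in the mean of the stellate cell and fibroblast markers (7.17, next 7.47).

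The tissue difference varied between the chemical sets, by the interaction test, in 46 of the genes named. This is a smaller share than the 34.1% called among all tested genes, so the named genes did not vary more often than genes in general. The value given for each gene is the distance between the lowest and the highest of the 3 set differences on the log2 scale. It was at least 1 for Acmsd (2.00), Grina (1.85), Kap (1.75), Kl (1.73), Dcaf7 (1.64), Nudt3 (1.45), Sdcbp (1.40), Ppargc1a (1.39), Hjv (1.29), Kcnj1 (1.27) and Sdha (1.22). It was between 0.6 and 1 for Gstp1 (0.968), Pax8 (0.879), Hsd11b2 (0.874), Avpr2 (0.793), Glud1 (0.792), Slc26a1 (0.79), Krt7 (0.744), Acss2 (0.74), Cyp2c23 (0.712), Aqp3 (0.695), Tmlhe (0.684), Abcb11 (0.683), Slc3a1 (0.68), Tdo2 (0.669), Acsl1 (0.629), Lrrc19 (0.628) and Bdh1 (0.621). It was smaller for Nsdhl (0.585), Atp6v1g3 (0.548), Cd5l (0.528), Glul (0.524), Gys1 (0.522), Ywhaz (0.506), Slc20a2 (0.488), Gys2 (0.469), Hoxc4 (0.453), Slco2a1 (0.451), Pth1r (0.447), Gckr (0.44), Slc39a14 (0.44), Epcam (0.403), Acadm (0.402), Glyat (0.39), Acadvl (0.267) and Miox (0.264). The control difference between 3' and 5' actin divides the same sets, as given above.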

How the results depend on the processing

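The count of genes differing between the tissues (9950) and the 2-fold count (3114) stayed within 1.5 times under every alternative run, except for the 2-fold count with centring on the reference genes. That centring gave 9103 calls higher in liver and 1554 in kidney, 5943 genes at 2-fold (5100 and 843) and 1186 at a like level. It took the median difference of the reference genes themselves from -0.21 to 0.76, so it did not make them equal. The like-level count was also 2721 in the crude MCHM set alone. The interaction count became 321 with the actin covariate. That covariate follows tissue by set and cannot be told apart from the interaction, and the cause of the change was not tested. Leaving out 1 array at a time gave 9867 to 9942 calls (4323 to 4389 higher in liver, 5492 to 5597 in kidney), 3093 to 3123 at 2-fold (1173 to 1189 and 1907 to 1949), 4495 to 4605 at a like level and 3576 to 4383 interactions.

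Of 9407 values of the named genes under the alternatives, 9334 kept their direction and side of the threshold, 45 lost the call, 15 gained it and 13 reversed. Centring on the reference genes reversed Acat1 (0.65), Amt (0.24), Ass1 (0.48), Cyp11a1 (0.27), Cyp27b1 (0.46), Cyp2c23 (0.54), Dcaf7 (0.32), Gcsh (0.44), Hnf4a (0.26), Sdha (0.29) and Slc37a4 (0.37), and the mean over all probe sets reversed Hoxc4 (-0.23) and Scnn1a (-0.62).

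Liver and kidney arrays share 12 numbers, whose deviations correlated at 0.04 to 0.24, over 0.1 in 7 of 12, and 11 of 12 matched their own number best, a hint from the data and not from the design. With the number as a replicate block 9657 genes were called, 3112 at 2-fold and 4331 at a like level, and as a random block 9981, 3116 and 4613, with 4234 interactions. Array signal near background limits low levels.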
